A study of Mus musculus with 12 samples.

Results

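A set of 8 genes of potassium and sodium transport was followed through the RNA-seq of mouse mpkCCD cells: the sodium pump subunits Atp1b1 and Atp1b3, the pump regulators Fxyd2, Fxyd3 and Fxyd5, and the inwardly rectifying potassium (Kir) channels Kcnj1, Kcnj15 and Kcnj16. They were taken by gene name and are 8 of 52015 genes with a value. The level of a gene is given as FPKM, the fragments counted on the gene per kilobase of its exons and scaled to the mapped total, so that levels can be set side by side between genes. Of the 8 genes, 6 reached 0.5 FPKM in at least 1 group, while Fxyd3 and Kcnj15 stayed below it in every group.

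The sodium pump exports sodium from the cell in exchange for potassium, and in the collecting duct it sits in the basolateral membrane and drives the uptake of sodium from the urine. Its catalytic alpha subunit needs a beta subunit to fold and to reach the membrane, and small single-span FXYD proteins bind the complex and tune its affinity for sodium and potassium. Potassium brought in by the pump leaves through channels such as Kcnj1 (ROMK), the apical secretory channel of the distal nephron, and Kcnj16 (Kir5.1), a subunit that forms basolateral channels together with Kcnj10 (Kir4.1).

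The cells are a line derived from the mouse cortical collecting duct, and 12 libraries were made from total RNA. Control cells had been transduced with a non-targeting scramble guide RNA (Scr), and the knockout cells were CRISPR/Cas9-made Nfat5-deleted clones N1 and N3 (Nfat5-KO), targeted in the gene of the tonicity-responsive transcription factor NFAT5. Both kinds were kept for 5 days either in isotonic medium of 300 mosmol/kg or in medium brought to 600 mosmol/kg with 100 mM NaCl and 100 mM urea. The groups Scr_300 and Scr_600 had 2 libraries each, and Nfat5-KO_300 and Nfat5-KO_600 had 4 each, 2 from each clone.

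The deposited values hold 1 FPKM value per gene and group, the authors' pooled value, and no value per library. No spread between replicates, no p-value and no test can therefore be given, no difference between these values has a replicate check here, and a single library or clone can carry a group value. Where group values are put in order, it is unknown which neighbours differ beyond their spread. Low values fell on steps of whole reads, from which about 36000000, 37000000, 31000000 and 35000000 counted reads per library were estimated for Scr_300, Scr_600, Nfat5-KO_300 and Nfat5-KO_600. The same steps give the approximate number of reads behind each group value, summed over its libraries. These reads are estimates (of the genes at 1 to 3 reads with several exons, between 81.1% and 98.0% lay within 0.2 reads of a whole number), and no interval was calculated from them.

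The RNA of Nfat5 itself was listed at 5.61 FPKM in Scr_300, 7.93 in Scr_600, 3.47 in Nfat5-KO_300 and 6.88 in Nfat5-KO_600, so the label of the knockout cannot be checked by the amount of this RNA. All 7 epithelial markers looked at (among them Cdh1, Epcam and Krt8) had at least 0.5 FPKM in every group. Of 12 principal cell markers only 4 or 5 did, and the water channel Aqp2 was listed at 0 in Scr_300 and did not exceed 0.245 FPKM in any group. The summed level of the 12 was 50.7 FPKM in Scr_300, 34.1 in Scr_600, 69.6 in Nfat5-KO_300 and 100.3 in Nfat5-KO_600. Most of each sum was Tfcp2l1, at 40.6, 25.1, 48.9 and 53.4 FPKM, with Gata3 at 30.0 in Nfat5-KO_600. In hypertonic medium, knockout cells had 9.44-fold the Hsd11b2, 6.94-fold the Gata3, 5.35-fold the Scnn1a and 2.12-fold the Tfcp2l1 level of control cells. Of the 7 epithelial markers, Pax2 was 5.56-fold and Cdh16 1.44-fold lower in that comparison, and only Cdh1 was higher, at 1.16-fold. From Scr_300 to Scr_600, Pax2 went from 6.59 to 43.7 FPKM and Cdh16 from 33.5 to 186.1. From Nfat5-KO_300 to Nfat5-KO_600 they went from 2.23 to 7.85 and from 29.7 to 128.9. The part of these marker shifts in the results was not tested. The summed level of 6 intercalated cell markers lay between 0.499 and 1.04 FPKM, with Foxi1 and Atp6v0d2 at 0 in every group, and that of 4 thick ascending limb markers between 0.0694 and 0.302 FPKM. The summed level of 5 proximal tubule markers ranged from 0.0518 FPKM (Scr_600) to 1.24 FPKM (Nfat5-KO_600), the latter mostly Lrp2 at 1.07 FPKM. The part of this sum in the results was not tested. As the samples are bulk RNA, fewer cells that make a transcript and less of it per cell cannot be told apart.

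The sequences that locate Fxyd2 and Kcnj16, the genes of the 8 with the largest printed ratios, are shown first. The study also measured Fxyd2, its forms Fxyd2a and Fxyd2b, and Kcnj16 by real-time PCR, and those measurements are not used here. The positions of its primers were found by matching them to GENCODE M21 transcripts of GRCm38. Fxyd2 lies on the plus strand at chr9:45399669-45410278 and has 13 annotated transcripts. The sense primer named FXYD2A matched 3 of them at chr9:45406101-45406120, and that named FXYD2B matched 5 at chr9:45403244-45403263, in an annotated UTR. The sense primer named FXYD2 matched 11 of the 13 at chr9:45408352-45408371, coding in some of them and without an annotated coding frame in the others. Both FXYD2 primers together matched 7 of the 13. The first 2 primers thus mark alternative 5′ parts of the gene, which the gene-level FPKM sums and cannot separate.
FXYD2A sense: cacaggaagaccgtcgtgga
FXYD2B sense: gctcctgcgtacctcagaca
FXYD2 sense: cgtgggcctcctcatcattc

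Kcnj16 lies on the plus strand at chr11:110968033-111027968 and has 6 annotated transcripts. Its sense primer, at chr11:110997541-110997560 in an annotated UTR, matched only 1 of them, whereas its antisense primer at chr11:111024478-111024497 matched all 6. A product from both primers is 146 bases long in that transcript. The FPKM of Kcnj16 counts all 6 transcripts together.
KCNJ16 sense: tgtctgggcagtcgtgttga
KCNJ16 antisense: agggcattcagaggagtccg

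NFAT5 is known to bind elements with the core TGGAAA, named tonicity-responsive enhancers (TonE), and the 250 bases before each RefSeq start site (GRCm38.p6) were searched for this core on both strands. RefSeq windows were at hand for 7 of the 8 genes, Fxyd2 being without one. Of their 11 windows, 3 held TGGAAA, whereas 18.6% of all 32851 windows of this length in the mouse genome table did. The 3 windows belong to Kcnj16, with 2 of its 4, and to Atp1b3, with 1 of its 2. The Kcnj16 windows farther upstream, at chr11:110967783-110968032 and chr11:110997237-110997486, held none. Below, earlier and later start refer only to the Kcnj16 windows with the core. The window at chr11:111023610-111023859 (plus strand) precedes the first base of 2 of the 6 transcripts and holds the core on the opposite strand, at position -63 (counted back from the start, whose preceding base is -1). The window at chr11:111019335-111019584 (plus strand), whose start matches no GENCODE transcript, holds it on its own strand at position -209. The Atp1b3 window at chr9:96363716-96363965 (minus strand), whose start also matches no GENCODE transcript, holds it on the opposite strand at position -72. Both of these unmatched starts lie inside the annotated gene, and the sequence from each was found in no GENCODE transcript of it. Among the 11 windows, only this Atp1b3 window had a match to the longer TonE consensus, which 4.31% of all windows held. The single Kcnj1 window, at chr9:32393735-32393984 (plus strand) before 1 transcript of Kcnj1, held none and is shown beside them. All are written 5′ to 3′ on the strand of their gene, and capitals mark TGGAAA or its reverse complement TTTCCA. A match is a description of these letters, not evidence of binding.
Kcnj16, later start: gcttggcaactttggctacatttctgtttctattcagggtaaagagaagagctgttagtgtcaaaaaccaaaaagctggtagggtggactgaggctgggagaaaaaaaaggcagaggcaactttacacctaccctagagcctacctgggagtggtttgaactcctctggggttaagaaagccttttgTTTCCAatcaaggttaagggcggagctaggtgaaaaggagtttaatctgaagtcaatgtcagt
Kcnj16, earlier start: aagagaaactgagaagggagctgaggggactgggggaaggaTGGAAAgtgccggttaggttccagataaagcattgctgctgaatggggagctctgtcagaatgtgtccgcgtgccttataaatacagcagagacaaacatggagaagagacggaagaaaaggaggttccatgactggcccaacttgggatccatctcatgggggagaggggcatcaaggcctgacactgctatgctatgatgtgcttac
Atp1b3 window: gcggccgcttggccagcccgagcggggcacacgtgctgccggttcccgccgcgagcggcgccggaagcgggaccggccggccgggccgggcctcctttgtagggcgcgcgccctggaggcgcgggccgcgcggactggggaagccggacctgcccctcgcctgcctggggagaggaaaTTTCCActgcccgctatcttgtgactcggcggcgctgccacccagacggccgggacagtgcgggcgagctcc
Kcnj1 window: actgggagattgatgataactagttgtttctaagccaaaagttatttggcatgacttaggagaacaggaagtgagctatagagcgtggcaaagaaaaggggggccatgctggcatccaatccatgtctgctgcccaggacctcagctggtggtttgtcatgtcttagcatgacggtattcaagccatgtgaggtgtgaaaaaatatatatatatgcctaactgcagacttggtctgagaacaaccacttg

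Differences between groups are given as log2 ratios of FPKM + 0.1, which understate the difference of genes with low levels, and as plain ratios of FPKM. No ratio is printed where either group was under 0.1 FPKM. Counts of genes at least 2-fold apart cover genes with at least 0.5 FPKM in either of the groups compared. A gene that passes this limit only in the group where it is high had to differ, so the counts over the 8 genes are a description and support no statement about them as a set.

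**Figure D1:**
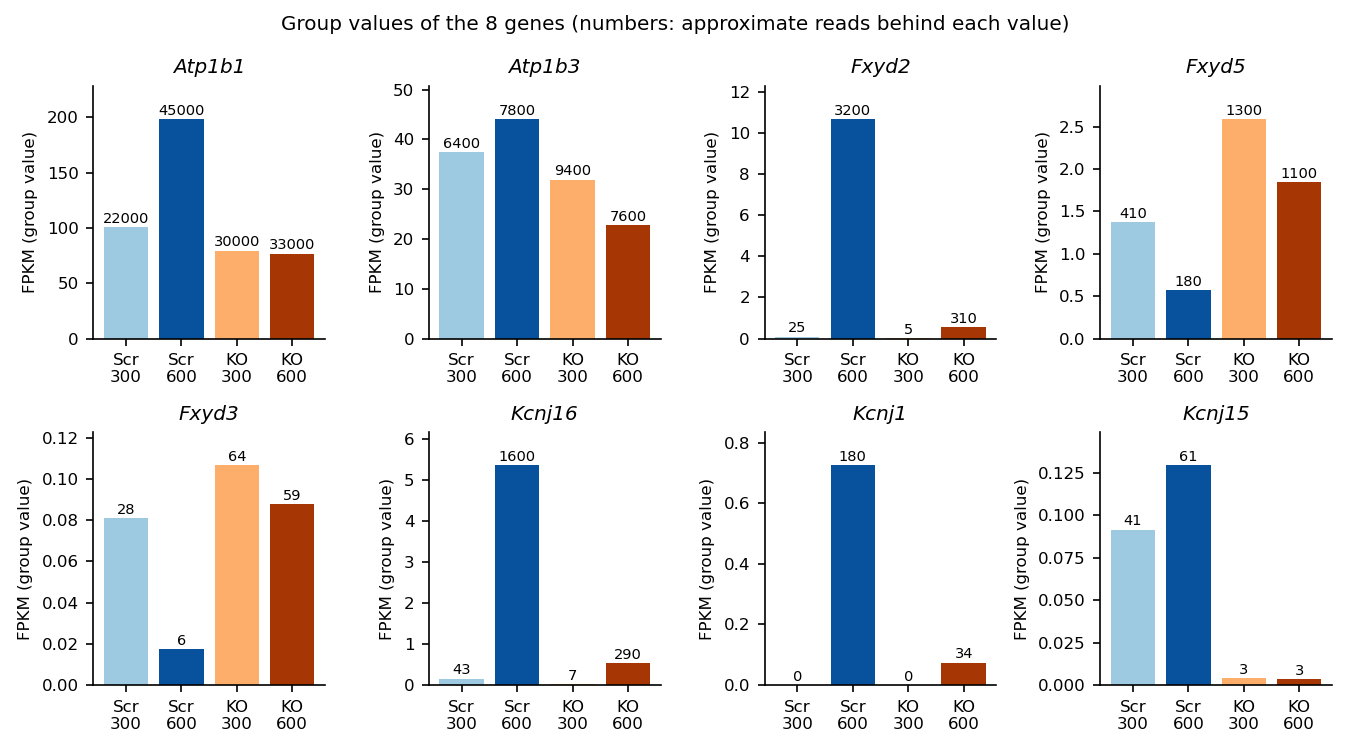
Level of each of the 8 genes in the 4 groups. Bars are the deposited FPKM value of the group on a linear axis of its own for each gene, and the number above a bar is the approximate number of reads summed over the libraries of that group. Fxyd2, Kcnj16 and Kcnj1 had their highest bar in Scr_600, and Fxyd5 had its lowest there.

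The first question was how the beta subunits of the pump stood in the 4 groups. Atp1b1 (chr1:164437109-164458355, minus strand), the main beta subunit of kidney epithelia, was listed at 100.6 FPKM in Scr_300, 198.4 in Scr_600, 79.3 in Nfat5-KO_300 and 76.6 in Nfat5-KO_600. Its value in hypertonic control cells was the highest, and the other 3 lay between 76.6 and 100.6 FPKM. About 22000, 45000, 30000 and 33000 reads stood behind these values, so Atp1b1 was by far the most deeply read of the 8 genes. In the order of all genes by FPKM it took place 139 in Scr_600, and places 384, 526 and 413 in Scr_300, Nfat5-KO_300 and Nfat5-KO_600.

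Hypertonic control cells had 1.97-fold the Atp1b1 level of isotonic ones, a log2 ratio of 0.98, which was the 648th highest of 12929 genes. In the knockout cells the same log2 ratio was -0.05, near the median of -0.04 over all genes of that comparison. Under a rescaling of every group to the same summed FPKM this last ratio became 0.19, so its sign depends on the scale. In hypertonic medium the knockout cells had a 2.59-fold lower level than the control cells, with a log2 ratio of -1.37, the 269th lowest of 13063 genes. In isotonic medium they had a 1.27-fold lower level, with a log2 ratio of -0.34.

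Atp1b3 (chr9:96332655-96364442, minus strand), the more widely expressed beta3 subunit, was listed at 37.4 FPKM in Scr_300, 44.1 in Scr_600, 31.9 in Nfat5-KO_300 and 22.8 in Nfat5-KO_600. It was thus highest in the same group as Atp1b1, by a smaller margin, and lowest in the hypertonic knockout cells. The reads behind these values were about 6400, 7800, 9400 and 7600. The Atp1b3 log2 ratio between hypertonic and isotonic cells was 0.24 in control cells and -0.48 in knockout cells. Between knockout and control cells it was -0.95 in hypertonic medium, a 1.93-fold lower level (just past 2-fold with median-of-ratios scaling), and -0.23 in isotonic medium.

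For both beta genes the hypertonic log2 ratio was lower in the knockout than in the control cells. The difference of these log2 ratios, Nfat5-KO minus Scr, was -1.03 for Atp1b1 and -0.72 for Atp1b3. Over all 13414 genes its median was -0.01 with an SD of 0.58, and 3.16% of genes had a difference of -1 or lower. Atp1b1 was the 393rd lowest and Atp1b3 the 789th lowest.

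Summed over Atp1b1, Atp1b2 and Atp1b3, the beta subunits reached 138.5 FPKM in Scr_300, 242.8 in Scr_600, 111.3 in Nfat5-KO_300 and 99.9 in Nfat5-KO_600. Atp1b1 made up 72.6%, 81.7%, 71.2% and 76.7% of that sum, so it was the main beta transcript in every group, with its largest share in Scr_600. The neuronal and glial beta2 subunit, Atp1b2, did not exceed 0.531 FPKM.

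The second question was which FXYD regulators the cells made. Fxyd2, the gamma subunit of the pump, was listed at 0.0877 FPKM in Scr_300, 10.7 in Scr_600, 0.00955 in Nfat5-KO_300 and 0.552 in Nfat5-KO_600. It was nearly silent in both isotonic groups and present in both hypertonic ones, far higher in the control cells. About 25 reads stood behind the isotonic control value and 3200 behind the hypertonic one, against about 5 and 310 in knockout cells. The level in hypertonic knockout cells was 19.3-fold lower than in hypertonic control cells. On the log2 scale of FPKM + 0.1 this was -4.05, the 10th lowest ratio of 13063 genes. No ratio is given against the isotonic groups, which were under 0.1 FPKM. The order of the groups in the knockout cells, higher at 600 than at 300 mosmol/kg, was that of the control cells.

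Fxyd5 (dysadherin, chr7:31032722-31042481, minus strand), an FXYD protein also known for weakening cell adhesion, had the opposite order of media in both kinds of cell. It was listed at 1.37 FPKM in Scr_300, 0.571 in Scr_600, 2.59 in Nfat5-KO_300 and 1.84 in Nfat5-KO_600. Both knockout values were above both control values, and within each kind of cell the hypertonic value was the lower one. The approximate reads were 410, 180, 1300 and 1100. In hypertonic medium the knockout cells had 3.23-fold the Fxyd5 level of the control cells, with a log2 ratio of 1.53 (0.86, short of 2-fold, with a pseudocount of 1 FPKM), the 174th highest of 13063. In isotonic medium they had 1.88-fold, with a log2 ratio of 0.87, the 303rd highest of 12704. Hypertonic control cells had a 2.40-fold lower Fxyd5 level than isotonic ones (log2 ratio -1.13, the 289th lowest of 12929), and hypertonic knockout cells a 1.40-fold lower one (log2 ratio -0.47). The difference of these log2 ratios, Nfat5-KO minus Scr, was 0.67, the 1045th highest of 13414 genes.

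Fxyd3 (Mat-8; chr7:31068172-31076704, minus strand), an FXYD protein of several epithelia, stayed between 0.0174 and 0.107 FPKM. Its values were 0.0810 in Scr_300, 0.0174 in Scr_600, 0.107 in Nfat5-KO_300 and 0.0877 in Nfat5-KO_600. The lowest of them rested on about 6 reads and the others on 28, 64 and 59, and no ratio is given at this level.

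Over the 7 FXYD genes, the summed level was 1.78 FPKM in Scr_300, 11.8 in Scr_600, 2.92 in Nfat5-KO_300 and 2.96 in Nfat5-KO_600. In hypertonic control cells Fxyd2 was 90.7% of the sum and Fxyd5 4.86%. In the other groups Fxyd5 was the larger, with 77.0% in Scr_300, 88.8% in Nfat5-KO_300 and 62.4% in Nfat5-KO_600, where Fxyd2 held 18.7%. The leading FXYD transcript of Scr_600 thus differed from that of the other 3 groups. Fxyd4 (CHIF), the FXYD protein typical of the collecting duct in the body, stayed at 0.198 to 0.455 FPKM in the 4 groups.

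**Figure D2:**
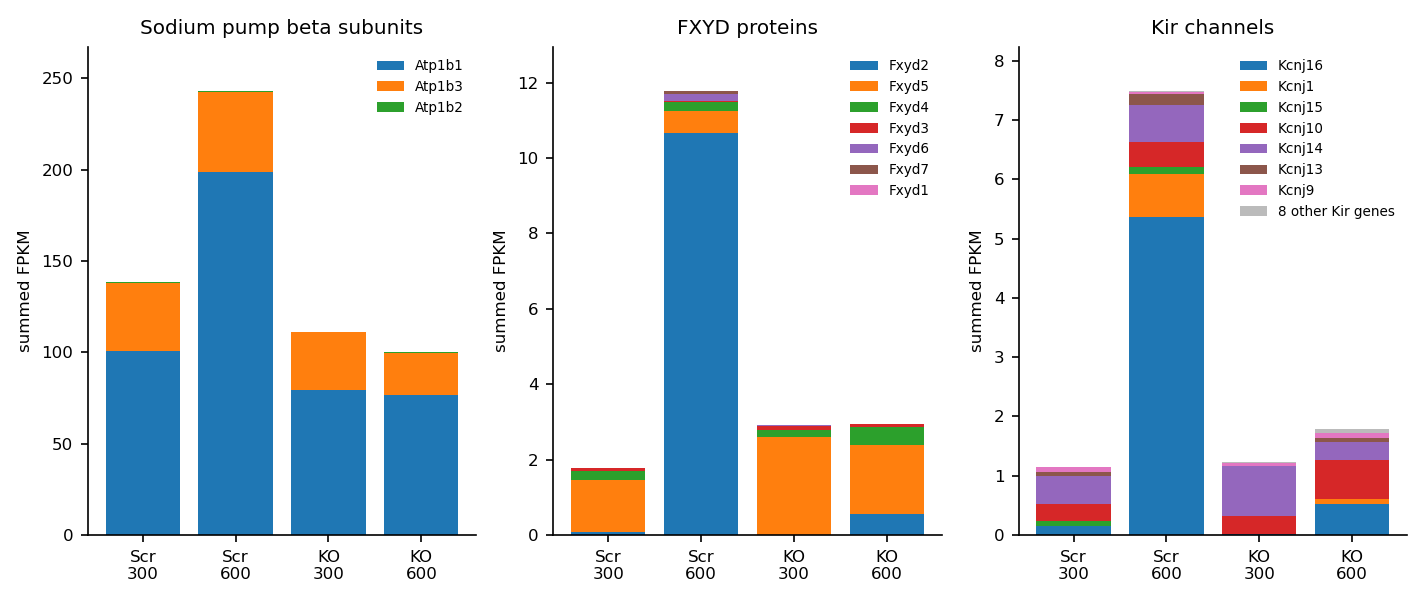
Summed FPKM of the beta subunits, the FXYD family and the Kir channels in the 4 groups, with 1 colour per gene. Atp1b1 filled most of the beta bar in every group, while Fxyd2 and Kcnj16 filled most of the FXYD and Kir bars only in Scr_600, where they made up 90.7% and 71.6%.

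The third question concerned the Kir channels. Kcnj16 was listed at 0.152 FPKM in Scr_300, 5.36 in Scr_600, 0.0143 in Nfat5-KO_300 and 0.526 in Nfat5-KO_600. This is the order seen for Fxyd2, with both hypertonic values above both isotonic ones. The reads behind the values were about 43, 1600, 7 and 290. Hypertonic control cells had 35.3-fold the Kcnj16 level of isotonic ones, and the log2 ratio of FPKM + 0.1, 4.44, was the 8th highest of 12929 genes. With a pseudocount of 1 FPKM it was 2.46 and with 0.01 FPKM 5.05, so its size depended on that choice. Hypertonic knockout cells had a 10.2-fold lower level than hypertonic control cells, with a log2 ratio of -3.13, the 26th lowest of 13063. No ratio is given for the isotonic knockout cells, which were under 0.1 FPKM.

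Kcnj1 (chr9:32372493-32399197, plus strand), the apical ROMK channel, was listed at 0 FPKM in both isotonic groups, at 0.725 in Scr_600 and at 0.0740 in Nfat5-KO_600. About 180 reads in 2 libraries stood behind the control value and about 34 in 4 libraries behind the knockout value. Reads of Kcnj1 were thus listed in hypertonic cells of both kinds and in no isotonic group. No ratio is given, because 3 of the 4 values were under 0.1 FPKM.

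Kcnj15 (Kir4.2; chr16:95257558-95300260, plus strand), a channel best known from the proximal tubule, was listed at 0.0914 FPKM in Scr_300, 0.129 in Scr_600, 0.00392 in Nfat5-KO_300 and 0.00352 in Nfat5-KO_600. About 41 and 61 reads were behind the control values and about 3 behind each knockout value. Here the groups were ordered by genotype and not by osmolality, the control values being above the knockout values in both media, at levels that rest on 3 to 61 reads.

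Over the 15 Kir genes looked at, the summed level was 1.14 FPKM in Scr_300, 7.48 in Scr_600, 1.23 in Nfat5-KO_300 and 1.79 in Nfat5-KO_600. Kcnj16 made up 71.6% of it in Scr_600, 29.3% in Nfat5-KO_600, 13.3% in Scr_300 and 1.16% in Nfat5-KO_300. Kcnj10, the usual partner of Kcnj16, was listed at 0.278, 0.420, 0.305 and 0.663 FPKM in the usual order of groups. Kcnj16 was therefore above Kcnj10 in Scr_600 and below it in the other 3 groups, and the highest Kcnj10 value was that of the hypertonic knockout cells. Kcnj14 was listed at 0.477, 0.621, 0.842 and 0.298 FPKM and was the leading Kir gene in both isotonic groups.

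The 8 genes can now be set against all genes in each comparison. In hypertonic medium, 6 of the 8 could be compared between knockout and control cells, and 4 were at least 2-fold lower (Atp1b1, Fxyd2, Kcnj1 and Kcnj16) and 1 at least 2-fold higher (Fxyd5). Among all 13063 genes compared, the shares past these limits were 3.68% and 3.76%. With a pseudocount of 1 FPKM the calls of Kcnj1, at 0.725 FPKM in Scr_600, and of Fxyd5 are lost. In isotonic medium only Atp1b1, Atp1b3 and Fxyd5 could be compared and 0 of the 3 were 2-fold apart, whereas the 2-fold limit was passed upwards by 1.73% and downwards by 2.44% of 12704 genes.

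Between hypertonic and isotonic control cells, 3 of 6 passed the limit upwards (Fxyd2, Kcnj1 and Kcnj16), against 4.81% of 12929 genes. The call of Kcnj1, at 0 and 0.725 FPKM in Scr_300 and Scr_600, is lost with a pseudocount of 1 FPKM. Fxyd5 was the 1 gene at least 2-fold lower, against 2.86%, a call lost with a pseudocount of 1 FPKM (log2 ratio -0.60). Atp1b1 was just short of 2-fold and past it on columns rescaled to the same sum (log2 ratio 1.11). Between the knockout groups 2 of 5 genes, Fxyd2 and Kcnj16, passed the limit upwards in hypertonic medium, against 6.25% of 12982 genes, and 0 were at least 2-fold lower, against 4.11%. Fxyd2 and Kcnj16 were at 0.552 and 0.526 FPKM in Nfat5-KO_600 and under 0.1 FPKM in Nfat5-KO_300. Neither call holds with a pseudocount of 1 FPKM, as no value under 1 FPKM can then be 2-fold higher. The comparisons share groups, so their values are not independent of each other. Rescaling every group to the same summed FPKM moved the median of all genes by 0.13 in Scr_600 against Scr_300, by 0.24 in Nfat5-KO_600 against Nfat5-KO_300 and by 0.13 in Nfat5-KO_600 against Scr_600. It kept the direction of each ratio of the 8 genes printed here except that of Atp1b1 between the knockout groups.

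**Figure D3:**
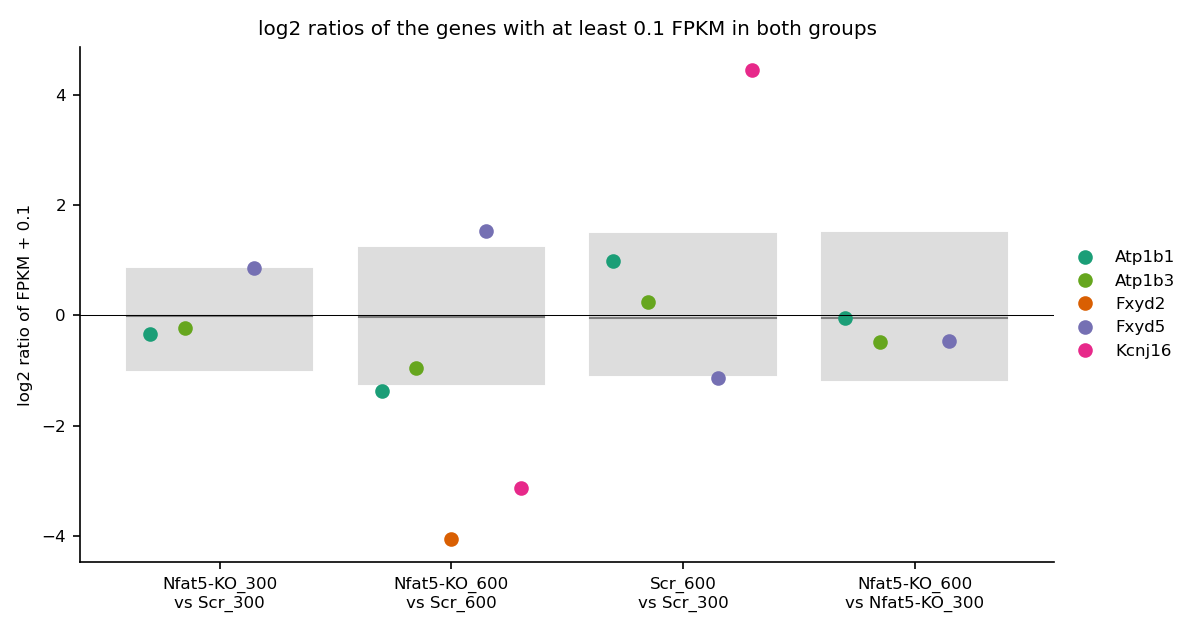
log2 ratio of FPKM + 0.1 in the 4 comparisons (points), shown where neither group was under 0.1 FPKM. The grey box spans the central 95% of all genes compared and the grey line is their median. Kcnj16 in Scr_600 against Scr_300, at 4.44, and Fxyd2 and Kcnj16 in Nfat5-KO_600 against Scr_600, at -4.05 and -3.13, lay far outside the box.

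Other genes of sodium pump and potassium transport were looked at as lists. Of 11 pump and related ATPase subunits, between 4 and 5 could be compared in each comparison, and the 2-fold limit was passed by 1 in hypertonic knockout against hypertonic control cells (Atp1b1, lower) and by 1 in hypertonic against isotonic knockout cells (Atp1b2, higher, log2 ratio 1.32). Of 18 further epithelial potassium channels and their subunits, 4 could be compared, and 0 passed the limit in any of the 4 comparisons. The best read of them, the tandem-pore channel Kcnk1, was listed at 45.1, 89.5, 38.7 and 54.7 FPKM in the usual order of groups, with a log2 ratio of 0.99 between hypertonic and isotonic control cells and 0.50 between the knockout groups. Kcnk5, another tandem-pore channel, was listed at 15.5, 21.9, 12.3 and 21.5 FPKM. The large potassium channel Kcnma1, which secretes potassium at high flow, was listed at 0 in 3 groups and at 0.00177 FPKM in Nfat5-KO_600. Of 4 NKAIN proteins, which bind beta1, only Nkain1 could be compared, and it was listed at 3.80, 3.59, 2.26 and 1.96 FPKM, lower in both knockout groups.

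The neighbourhood of the genes was read for transcripts that move beside them. The gene next to Fxyd2 on its 5′ side and on the same strand, Fxyd6, lies 3510 bases away and was listed at 0.0106 FPKM in Scr_300, 0.185 in Scr_600, 0.00931 in Nfat5-KO_300 and 0.00874 in Nfat5-KO_600. About 57 reads stood behind the Scr_600 value and 3 to 5 behind the others, so its highest group was that of Fxyd2. On the other side, Gm48135, 3195 bases away on the opposite strand, was listed at 0.252 FPKM in Scr_600, about 12 reads, and at 0 in the other groups. A long noncoding RNA gene on the opposite strand 4087 bases from Atp1b1, Gm32391, was listed at 1.17, 2.16, 1.08 and 1.03 FPKM, the same order of groups as for Atp1b1. About 45 to 87 reads stood behind those values. Nme7, which shares 617 bases with Atp1b1 on the opposite strand, was between 4.26 and 4.65 FPKM in all groups. Whether strand was used in counting is not given in the sources used here, so reads in the shared bases cannot be assigned with certainty. The same limit holds for Fxyd3, which shares 2764 bases with Lgi4 on the opposite strand, listed at no more than 0.0261 FPKM. It also holds for Kcnj15, which shares 42703 bases with the antisense gene Gm31641, for which no value was listed. The nearest gene to Kcnj16 on its 3′ side, the Kir channel Kcnj2, lies 38196 bases away and was listed at 0 in 3 groups and at 0.00261 FPKM, about 1 read, in Scr_600.

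For each of the 6 genes that reached 0.5 FPKM, the 3 genes with the most similar pattern were found among 11916 others with at least 1 FPKM in a group. The measure was the Euclidean distance between the 4 centred values of log2(FPKM + 0.1), over 4 group values only. Nearest to Atp1b1 were Snx9 at a distance of 0.13, Shb at 0.17 and Lurap1l at 0.17, and among the nearest to Atp1b3 were Gm13493 at 0.04 and Gm23084 at 0.06. Fxyd5 was most like Ramp3 at 0.15, Msx2 at 0.16 and Gm37359 at 0.23. With 4 values per gene, these distances are a description.

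The nearest genes of Fxyd2, Kcnj1 and Kcnj16 lay farther off. Nearest to Fxyd2 were Gm5868 at 0.85, Inmt at 1.05 and the betaine transporter Slc6a12, a known NFAT5 target gene, at 1.60. Slc6a12 was listed at 0.00512 FPKM in Scr_300, 2.10 in Scr_600, 0 in Nfat5-KO_300 and 0.135 in Nfat5-KO_600. Nearest to Kcnj16 were Slco4a1 at 0.74, Gm5868 at 0.85 and Inmt at 0.90, so that Gm5868 and Inmt were among the nearest genes of both. Inmt, an amine methyltransferase, was listed at 7.54, 248.6, 3.49 and 40.8 FPKM, with the same order of groups as Fxyd2 and Kcnj16. Nearest to Kcnj1 were Rnf183 at 0.43, 1700016C15Rik at 0.44 and Gm12138 at 0.45.

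**Figure D4:**
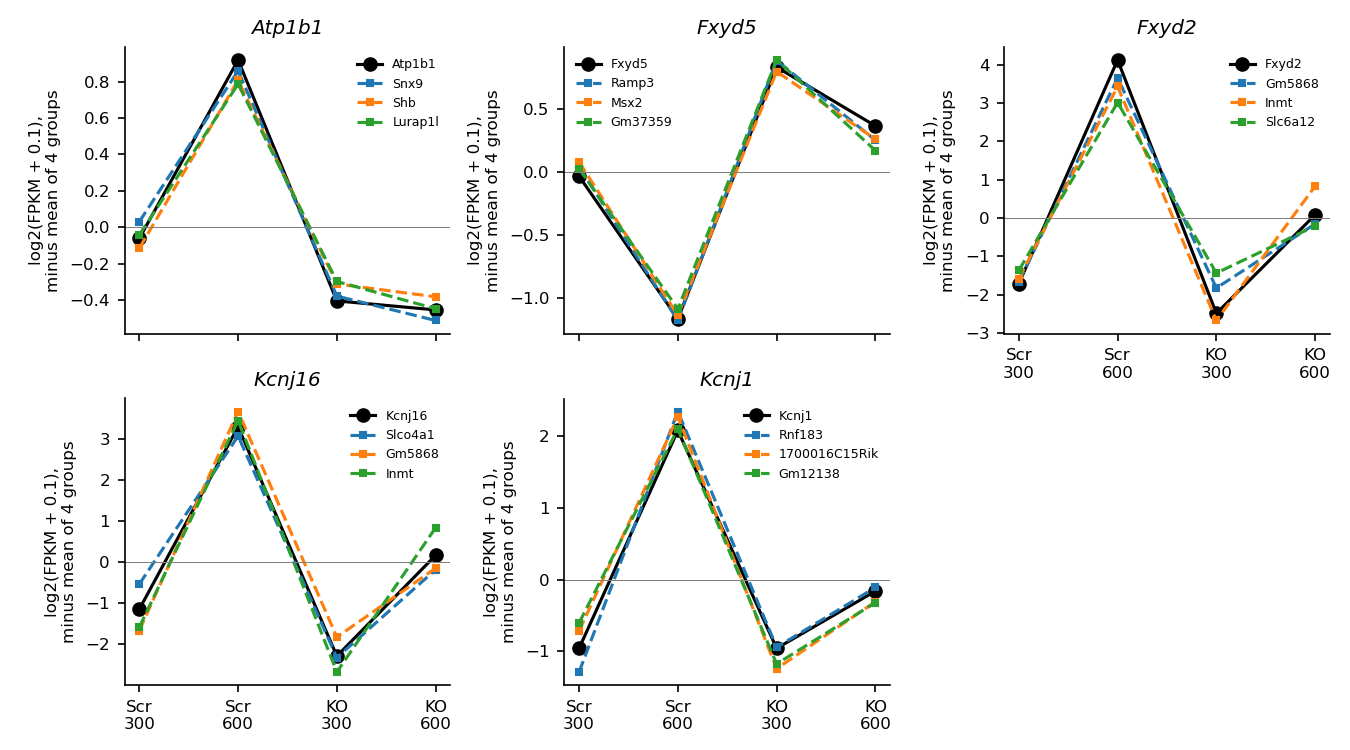
Pattern over the 4 groups of 5 genes (black line) and of the 3 genes nearest to each (coloured broken lines), as log2(FPKM + 0.1) minus the mean of the 4 groups. Fxyd2, Kcnj16 and Kcnj1 and their nearest genes had their highest value in Scr_600, whereas Fxyd5 had its low group there.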

How the data were processed

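RNA-seq of 12 libraries of mpkCCD cells was used, in 4 groups taken from the sample labels. After cleaning of low-quality and adapter reads, the authors mapped the pairs to GRCm38/mm10 with HISAT2, counted them per gene with HTSeq and calculated values per kilobase and mapped total (tools per the submitters' notes, versions not given in the sources used here). The deposited FPKM values hold 1 value per gene and group. How the libraries were pooled, and which annotation release was used, are not given in the sources used here.

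Of 54839 rows, 2436 without a value, 311 exact duplicates and the rows of 37 symbols with several values were left out, and 52015 genes remained. log2 ratios of FPKM + 0.1 were taken over genes with at least 0.5 FPKM in either group, and a gene counted as different at a ratio of 2-fold or more. The planned limma fit for values per library could not be used, and no p-value was calculated. Approximate reads come from the steps of FPKM times exon length (GENCODE M21 for GRCm38, matched by symbol for 51582 genes), a method chosen after seeing the data. Libraries of a group may differ in depth, so these reads carry an error that was not measured. Promoters come from RefSeq (GRCm38.p6). The genes named are the 8 genes, listed relatives that reached 0.5 FPKM or set a contrast, their neighbours and the 3 most similar genes. Some genes of these lists are not reported here. Kcnma1, Kcnj2, Fxyd4, Fxyd6, Lgi4 and Gm48135 were named at lower levels. The genes and lists were chosen with earlier results of these data known. Alternatives were pseudocounts of 1 and 0.01 FPKM, median-of-ratios scaling, columns rescaled to a sum of 1000000, no filter, and a higher limit (mean of 1 FPKM or more). The 2-fold count and the estimate of reads from steps had been tested on simulated data, the other steps had not. That simulation held counting noise only, without variation between replicates or clones, and its 2-fold count covered genes of 1 FPKM or more. The software was pandas 2.3.3, numpy 2.4.6, scipy 1.17.1 and matplotlib 3.10.9 under Python 3.11.15.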

Additional observations from a re-analysis of the deposited data

Results flagged for a closer look

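Among the pump, FXYD and channel genes and the cell type markers with at least 0.1 FPKM in every group and 0.5 FPKM in at least 1, there were 8 for which the log2 ratio between hypertonic and isotonic medium had one sign in control cells and the other in knockout cells. With 1 value per group, none of these differences was tested. Atp1b1 had 0.98 in control and -0.05 in knockout cells, a difference (knockout minus control) of -1.03. On columns rescaled to the same sum the knockout ratio was 0.19, so the 2 signs were then alike, and the difference was -0.92. Atp1b3 had 0.24 and -0.48, a difference of -0.72. Atp1b2 had -0.46 and 1.32, a difference of 1.77, at levels between 0.153 and 0.531 FPKM. Kcnj14 had 0.32 and -1.24, a difference of -1.56, and the tandem-pore channel Kcnk2 had 0.19 and -0.45, a difference of -0.65. Of the markers, Scnn1a had -1.11 and 0.96, a difference of 2.07, Tfcp2l1 had -0.69 and 0.13, a difference of 0.82, and Trpm6 had 0.23 and -0.24, a difference of -0.46.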

How the results depend on the processing

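No paired analysis was possible because the deposited values hold 1 value per group, and for the same reason no library was left out in turn. The number of genes at least 2-fold apart depended on the settings. With a pseudocount of 1 FPKM, without a filter and with a mean of at least 1 FPKM, it moved from 530 to 135, 1228 and 259 in Nfat5-KO_300 against Scr_300, from 972 to 338, 1884 and 548 in Nfat5-KO_600 against Scr_600, from 992 to 375, 1835 and 553 in Scr_600 against Scr_300, and from 1346 to 489, 2211 and 855 in Nfat5-KO_600 against Nfat5-KO_300. The share of these genes that were higher was 50.5% in Nfat5-KO_600 against Scr_600, 61.2% on rescaled columns and 39.9% with a pseudocount of 1 FPKM. In Nfat5-KO_600 against Nfat5-KO_300 it was 60.3% and 80.8% on rescaled columns. A pseudocount cannot turn the direction of a log2 ratio. Of 30 log2 ratios of Atp1b1, Atp1b3, Fxyd2, Fxyd5 and Kcnj16 under 2 other scalings, 29 kept their direction, the exception being Atp1b1 between the knockout groups (-0.05, and 0.19 on rescaled columns). Fxyd3, Kcnj1 and Kcnj15 had no printed ratio, and none was recomputed. Kcnj1 did not exceed 0.725 FPKM, so both of its 2-fold calls are lost with a pseudocount of 1 FPKM. The same holds for the calls of Fxyd2 and Kcnj16 between the knockout groups, where both were under 1 FPKM. With a pseudocount of 1 FPKM, hypertonic knockout against hypertonic control cells had log2 ratios of -2.91 for Fxyd2, -2.06 for Kcnj16 and 0.86 for Fxyd5, which then stayed short of 2-fold, as did Fxyd5 in Scr_600 against Scr_300 at -0.60. Atp1b3 just passed 2-fold in Nfat5-KO_600 against Scr_600 with median-of-ratios scaling, and Atp1b1 in Scr_600 against Scr_300 on rescaled columns (1.11). Depth limits Fxyd3, Kcnj15 and Kcnj1 most, with group values that rest on 0 to 180 reads. It also limits the isotonic control and knockout values of Fxyd2 (about 25 and 5 reads) and Kcnj16 (about 43 and 7). The cause of these shifts was not tested.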
